A study of Mus musculus with 9 samples.

Results

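Six3, Six3os1, Foxp1, Foxp2, Foxp4, Tcf7l2, Nr2f1, Nr2f2, Uncx and Dach1 were followed through single cells of the developing mouse ventral midbrain. They are 10 of the 32695 genes in the table, and each was found by its symbol. 9 of them encode transcription factors or co-factors, and Six3os1 is a noncoding gene that shares a locus with Six3. The tissue was taken from VGAT-Cre:Ai14:Pitx3-GFP mice at embryonic day 16 (E16) and postnatal day 0 (P0), and every animal carried the 3 alleles. The Cre is driven from the vesicular GABA transporter gene Slc32a1 and switches on tdTomato for good, so a sorted cell need not have transcribed Slc32a1 on the day of the sort, and GFP reports Pitx3. Cells with tdTomato were sorted onto 4 plates at E16 and 3 at P0 (VGAT plates). Cells with tdTomato and GFP were sorted onto 1 plate at each stage (VGAT + PITX3 plates). After wells with fewer than 2000 genes, more than 50000 counts or at least 15% mitochondrial counts were left out, 2035 cells remained, 1460 on VGAT plates and 575 on VGAT + PITX3 plates. The plate is the replicate throughout. The labels do not say which animals or litters went onto which plate, so p-values measure the spread between plates.

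The substantia nigra pars reticulata (SNr) is the GABAergic output nucleus of the basal ganglia, and its neurons sit below the dopamine neurons of the pars compacta. In the study, the SNr neurons fall into a Six3 type and a Pax5 type, the second called SNr-1 here. SIX3 and its relatives are homeodomain factors that can pair with EYA and DACH proteins, FOXP proteins are forkhead repressors that bind DNA as dimers with one another, TCF7L2 is the DNA-binding partner of beta-catenin in Wnt signalling, NR2F1 and NR2F2 (COUP-TFI and COUP-TFII) are orphan nuclear receptors, and UNCX is a paired-type homeodomain factor.

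The sorts matched their labels for dopamine neuron markers. Th, the rate-limiting enzyme of dopamine synthesis, was at 565 and 474 CPM (normalised counts, scaled to the same total in every library) on the VGAT + PITX3 plates and between 0.19 and 6.16 CPM on the VGAT plates. Gad1, a GABA-synthesizing enzyme, was at 796 to 1210 CPM on the VGAT plates and at 14.5 and 10.3 CPM on the VGAT + PITX3 plates, whereas Gad2 and Slc32a1 were present on both. Total counts per plate ranged from 1435919 to 5408710, and the median cell held between 7043 counts (VGAT P0 replicate 2) and 33272 counts (VGAT P0 replicate 1, with 44 cells). Well names carry the stage in 2 places, and these disagreed for VGAT E16 replicates 3 and 4 and for VGAT P0 replicates 1 and 3. The sample labels were followed, and every stage result below rests on that choice.

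Six3 lies at chr17:85613608-85629302 on the plus strand and Six3os1 at chr17:85600651-85618398 on the minus strand (GRCm38), so their annotated spans share 4791 bases. The sources used here do not say whether strand was used in counting, so reads from the shared bases cannot be told apart. The same holds for Nr2f1 (chr13:78188973-78199757) and its antisense neighbour A830082K12Rik, and for Nr2f2 (chr7:70351944-70366735) and B130024G19Rik. Foxp1 (chr6:98925338-99522721) shares 265238 bases with the same-strand gene model Gm20696. The others are at chr6:14901349-15441977 (Foxp2), chr17:47867133-47924645 (Foxp4), chr19:55741820-55933654 (Tcf7l2), chr5:139543494-139548179 (Uncx) and chr14:97786853-98169765 (Dach1).

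Promoter windows were read from RefSeq on GRCm38.p6, from 250 bases before to 50 bases after a start site, and 13 windows matched 9 of the 10 genes. Foxp2 had no entry. The windows of Six3, Six3os1, Uncx and Nr2f2 are printed 5′ to 3′ on the strand of the gene, because the first 3 genes were found in the same cells and Nr2f2 was found with Tcf7l2. Capitals mark matches on either strand to TGATAC (core of SIX3-type sites), TGTTTAC (forkhead), CTTTGAT or CTTTGAA (TCF/LEF), AGGTCA (nuclear receptor element) and TAATTA (homeodomain).
Six3, chr17:85620584-85620883, plus strand: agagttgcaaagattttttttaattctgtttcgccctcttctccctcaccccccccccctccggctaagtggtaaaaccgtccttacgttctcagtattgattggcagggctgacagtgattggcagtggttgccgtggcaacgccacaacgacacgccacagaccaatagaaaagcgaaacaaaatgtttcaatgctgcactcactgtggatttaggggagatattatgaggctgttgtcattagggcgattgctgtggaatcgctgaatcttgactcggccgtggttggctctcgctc
Six3os1, chr17:85618347-85618646, minus strand: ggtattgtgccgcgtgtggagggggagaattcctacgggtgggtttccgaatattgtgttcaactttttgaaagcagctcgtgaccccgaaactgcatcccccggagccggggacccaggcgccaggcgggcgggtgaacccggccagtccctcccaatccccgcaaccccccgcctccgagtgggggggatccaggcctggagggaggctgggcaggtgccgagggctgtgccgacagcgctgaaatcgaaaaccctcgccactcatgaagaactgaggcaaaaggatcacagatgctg
Uncx, chr5:139543648-139543947, plus strand: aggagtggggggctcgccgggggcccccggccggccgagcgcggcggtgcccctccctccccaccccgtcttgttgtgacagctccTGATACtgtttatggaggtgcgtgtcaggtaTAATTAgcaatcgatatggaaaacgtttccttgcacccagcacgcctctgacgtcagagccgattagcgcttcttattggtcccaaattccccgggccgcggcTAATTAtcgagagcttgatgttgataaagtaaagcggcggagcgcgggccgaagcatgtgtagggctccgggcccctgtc
Nr2f2, chr7:70366697-70366996, minus strand: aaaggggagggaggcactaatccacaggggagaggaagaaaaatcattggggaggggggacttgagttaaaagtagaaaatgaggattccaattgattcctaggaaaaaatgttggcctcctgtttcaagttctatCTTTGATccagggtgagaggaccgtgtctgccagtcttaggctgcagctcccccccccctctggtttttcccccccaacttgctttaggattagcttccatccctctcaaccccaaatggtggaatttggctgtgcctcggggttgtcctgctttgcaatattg
The Six3 and Six3os1 windows held none of these letters. The Uncx window held 1 TGATAC, which 5.46% of all 32851 windows of this length also hold, and 2 homeodomain matches (5.29% of windows hold at least 1). The Nr2f2 window held 1 TCF/LEF match (8.65% of windows). Among the windows not printed, 1 of Nr2f1 held a forkhead match (3.65% of windows), the 1 of Dach1 held 2 TCF/LEF matches, 1 of Foxp1 held 1 TCF/LEF and 1 homeodomain match, and none of the 13 held AGGTCA (16.3% of windows). No binding was measured in these cells, and a match of letters is not a binding site.

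Six3 was abundant on every VGAT plate. Its level in counts summed over the cells of a plate was 600.1, 342, 491 and 294 CPM on VGAT E16 replicates 1 to 4 and 369, 394 and 332 CPM on VGAT P0 replicates 1 to 3. The VGAT + PITX3 plates were at 4.75 CPM (21 counts) at E16 and 0.449 CPM (1 count) at P0, and a single cell held 17 of those counts. Six3os1 stood at 110, 60.2, 118 and 60.1 CPM on the E16 VGAT plates, at 60.5, 37.2 and 43.8 CPM on the P0 VGAT plates, and at 0.905 and 0.449 CPM on the VGAT + PITX3 plates. Both genes were thus at every VGAT plate far above either VGAT + PITX3 plate. Because the tag is taken near the 3′ end of a transcript, levels are compared here within a gene and not between genes.

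**Figure D1:**
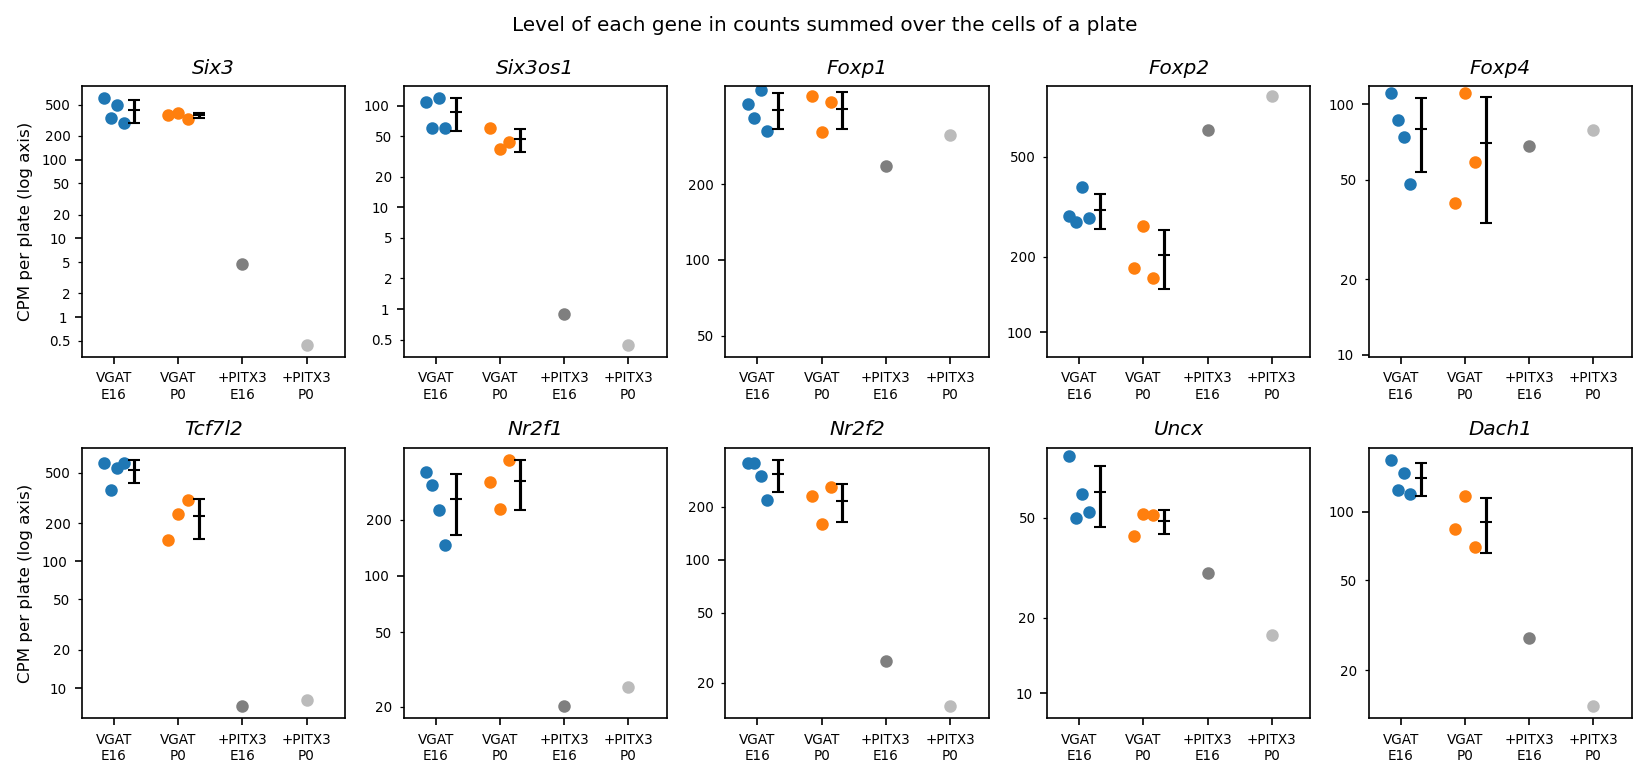
Level of each of the 10 genes in normalised counts (CPM, log axis) from counts summed over the cells of a plate, by sort and stage; each point is 1 plate, and the bars give the mean and SD of the VGAT plates (4 at E16, 3 at P0). Tcf7l2 was at 367 to 597 CPM on the E16 plates and at 148 to 306 CPM on the P0 plates, and Foxp2 was higher on both VGAT + PITX3 plates than on any VGAT plate.

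Six3 counts per cell were uneven. Of the 1460 cells on VGAT plates, 388 had at least 5 Six3 counts, 441 had 1 to 4 and 631 had none. The limit of 5 counts was chosen after the values were seen. Six3os1 was found in 82.7% of the cells with at least 5 Six3 counts, in 13.2% of those with 1 to 4 and in 5.07% of those with none. Cells with at least 5 Six3 counts made up 35.3%, 24.6%, 32.7% and 22.6% of the cells on VGAT E16 replicates 1 to 4 and 25%, 18.7% and 26.3% on VGAT P0 replicates 1 to 3. They were 1 of 304 and 0 of 271 cells on the VGAT + PITX3 plates. The share was thus between 18.7% and 35.3% on the 7 VGAT plates. These counts were not thinned, and the lowest share is that of the plate with the fewest counts per cell.

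Low Six3 counts were also seen in cells of the other SNr type on 6 of the 7 VGAT plates, and 2 of these had by far the highest shares. After each cell was thinned to 4000 counts, Six3 was found in 5 of 12 SNr-1-like cells (41.7%) on VGAT E16 replicate 1 and in 8 of 21 (38.1%) on VGAT P0 replicate 2. It was found in 5.00%, 4.69% and 4.55% on VGAT E16 replicates 2, 3 and 4, in 1 of 7 on VGAT P0 replicate 3 and in 0 of 1 on VGAT P0 replicate 1. Six3os1, Foxp2 and Uncx were at 0 in the thinned SNr-1-like cells of VGAT E16 replicate 1. Tcf7l2 had a count in 4 of the 12 cells of VGAT E16 replicate 1. No SNr-1-like cell had 5 or more Six3 counts. Low Six3 counts were not particular to these cells. Over plates with at least 5 cells, Six3 was found on average in 18.5% and 8.78% of thinned cells in the SNr-1-like clusters 7 and 12. It was found in 17.8% in the Hypothalamic-like cluster 3, 20.7% in the Hindbrain-like cluster 14 and 17.1% in cluster 5. Median counts per cell were 20360 on VGAT E16 replicate 1 and 7043 on VGAT P0 replicate 2. Free RNA as the source of these counts was not tested. The main calls that rest on a single Six3 count are given with and without the 2 plates with the highest shares. Leaving these out does not remove every such count.

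**Figure D2:**
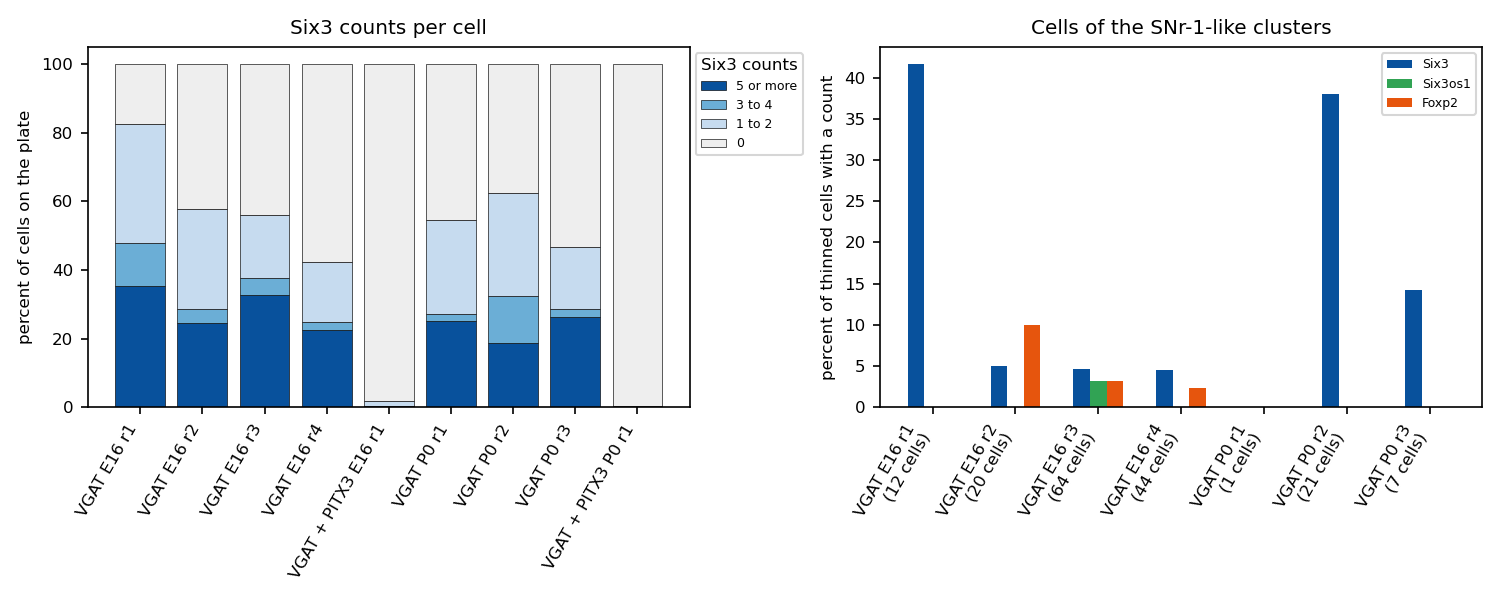
Left, percent of the cells on each plate with 0, 1 to 2, 3 to 4 and 5 or more Six3 counts. Right, percent of cells in the SNr-1-like clusters with a count of Six3, Six3os1 or Foxp2 after thinning to 4000 counts, with the number of cells under each plate; Six3 reaches 41.7% on VGAT E16 replicate 1 and 38.1% on VGAT P0 replicate 2.

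The first comparison asked whether the genes differ between E16 and P0 in cells of the VGAT sort. 1 of the 10 was called, Tcf7l2, and 4.58% of the 13639 genes tested were called, 2.84% higher and 1.74% lower at P0 (edgeR quasi-likelihood test, adjusted p under 0.05). Tcf7l2 was at 591, 367, 539 and 597 CPM at E16 and at 148, 234 and 306 CPM at P0, so the stages did not overlap. It was lower at P0 by a log2 fold change of -1.16 ± 0.22 (SE, 7 plates, adjusted p = 0.0178). In counts summed over cells, fewer cells with a gene and less RNA per cell cannot be told apart. Tcf7l2 was found in 19.5% to 34.97% of thinned cells at E16 and in 14.2% to 21.6% at P0, and these ranges overlap. The call was lost without VGAT E16 replicate 3 (adjusted p = 0.0523), without VGAT E16 replicate 4 (0.0516) and without VGAT P0 replicate 2 (0.0518), and also without cells over 2 times the median counts of their plate (-0.97, adjusted p = 0.0532). The log2 fold change stayed between -1.44 and -0.94 when any 1 plate was left out.

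Foxp2, Dach1 and Six3os1 did not pass the test for stage. Foxp2 was at 291, 275, 379 and 284 CPM at E16 and at 179.6, 264 and 165 CPM at P0 (log2 fold change -0.59 ± 0.17, adjusted p = 0.0660). Dach1 was at 169.99, 125, 148 and 119.8 CPM at E16 and at 84.1, 118 and 70.1 CPM at P0 (-0.63 ± 0.18, adjusted p = 0.0618). Six3os1 had a log2 fold change of -0.89 ± 0.26 (adjusted p = 0.0705), and 1 P0 plate was above 2 of the E16 plates. The stages of Foxp2 and Dach1 did not overlap, but the differences stayed just outside the threshold. For Six3, the difference was small (-0.23 ± 0.21, adjusted p = 0.527), and P0 plates lay within the E16 range.

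Nr2f1 and Nr2f2, which are close relatives, had differences of opposite sign that did not pass. Nr2f1 was at 359, 306, 224 and 147 CPM at E16 and at 320.2, 228 and 418 CPM at P0 (log2 fold change 0.33 ± 0.26, adjusted p = 0.466). Nr2f2 was at 353, 352, 297 and 217 CPM at E16 and at 231, 159 and 259.6 CPM at P0 (-0.48 ± 0.19, adjusted p = 0.147). The E16 plates of each gene spread over more than the distance between the stage means. Uncx ranged from 50.1 to 88.0 CPM at E16 and from 42.4 to 51.7 CPM at P0 (-0.36 ± 0.19, adjusted p = 0.279). Foxp1 was at 327 to 477 CPM at E16 and 324 to 449 CPM at P0, and Foxp4 at 48.2 to 111 CPM at E16 and 40.4 to 111 CPM at P0, so neither showed a stage difference beyond its spread (adjusted p = 0.955 and 0.777). Their signs turned under several alternatives given in the closing section.

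Some genes of the fixed lists were called for stage in the same plates, in both directions. Foxo1 of the Fox list was higher at P0 (log2 fold change 1.46), though not called without VGAT P0 replicate 3 (adjusted p = 0.0560). Fabp7 of the astrocyte and radial glia markers was higher at P0 (4.03), and it was at 0.11 without VGAT P0 replicate 2. Slc32a1 was higher (0.61), and its call was lost in 5 of the 7 fits that left out 1 plate. Of the forebrain and hypothalamic GABA list, which holds the Dlx genes, 3 of 10 were lower at P0, among them Sp8 (log2 fold change -3.27) and Sp9 (-1.81), and of the SNr-1 list 2 of 9 were lower (Sox21 -1.30 and Bcl11b -1.42). Sp8, Sp9, Sox21 and Bcl11b were each lower in all 7 fits that left out 1 plate, but none of the 4 was called without VGAT E16 replicate 3, VGAT E16 replicate 4 or VGAT P0 replicate 3 (adjusted p = 0.0661 to 0.161). The forebrain and hypothalamic list and Fabp7 mark other cell types, and Sox21 the other SNr type, whereas Bcl11b is not particular to that type. The part of cell makeup in the stage differences was not tested. Of the 8 tested midbrain GABA selectors, none was called, and likewise none of 5 tested genes of the EYA and DACH network of SIX3 relatives or of 6 tested TCF/LEF genes and Wnt targets.

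Within cells that had at least 1 Six3 count, 1 of the 9 remaining genes was called for stage, and 3.4% of 12219 genes were called, 2.28% higher and 1.11% lower at P0. Dach1, a co-repressor that can work with SIX3 relatives, was at 179, 144, 184 and 172 CPM in Six3 cells at E16 and at 94.96, 118 and 95.1 CPM at P0. The stages did not overlap, and the log2 fold change was -0.73 ± 0.14 (adjusted p = 0.0152). Without VGAT E16 replicate 1 and VGAT P0 replicate 2, the 2 plates with the highest share of Six3 in SNr-1-like cells, none of the 9 was called, and none was called without VGAT E16 replicate 1, VGAT E16 replicate 3 or VGAT P0 replicate 3 alone. The adjusted p of Dach1 ranged from 0.00831 to 0.0768 when 1 plate was left out. The Dach1 call was also lost in exon counts (log2 fold change -0.10, adjusted p = 0.863), and 83.0% of the Dach1 counts on the VGAT plates were intronic. In the same fit, other fixed markers moved with stage. Of the 8 tested genes of the forebrain and hypothalamic GABA list 4 were lower at P0, among them Dlx1 (-3.83) and Dlx6os1 (-4.27), Bcl11b, which is not particular to 1 SNr type, was lower (-1.27), and Fabp7 was higher (4.16, but -0.15 without VGAT P0 replicate 2). Dlx1, Dlx6os1 and Bcl11b were not called without VGAT P0 replicate 1, 2 or 3 (adjusted p = 0.0607 to 0.185). Without cells with a Dlx count, Dach1 was at -0.84 (adjusted p = 0.00795). Tcf7l2 was at 593, 336, 796 and 1010.0 CPM in Six3 cells at E16 and at 192, 283 and 453 CPM at P0 (-1.12 ± 0.32, adjusted p = 0.0659), with 1 E16 plate inside the P0 range. Of the 3 plates whose stage labels agree only 1 is P0, so no count called is given for them.

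The second comparison set the VGAT + PITX3 plates against the VGAT plates with stage as a covariate, and asked which of the genes separate the GABAergic cells from those that also carry Pitx3. All 10 passed the filter on low counts, 8 were called, and 8.93% of 14624 genes were called, 4.73% higher and 4.2% lower in the VGAT + PITX3 sort. Of the 8, 7 were lower and 1 was higher in the VGAT + PITX3 sort. Genes of the fixed lists moved with them. All 8 dopamine neuron markers were higher in the VGAT + PITX3 sort, while 8 of 9 tested midbrain GABA selectors (among them Gata3, Tal1 and Sox14) and 9 of 10 genes of the forebrain and hypothalamic GABA list were lower. Of the SNr-1 list 6 of 9 were lower, and En1 (3.35), En2 (3.37) and Pou3f2 (1.81) were higher. Of the Fox list Foxa1 and Foxa2 (1.84) were higher and Foxo1 (-1.32) was lower, and Eya1 (2.28) was the only called gene of 5 tested in the EYA and DACH network. Six3 and Six3os1 differed most, with log2 fold changes of -7.00 ± 0.44 and -6.55 ± 0.56 (adjusted p = 7.08e-08 and 1.58e-06), and these rest on the few counts given above. Tcf7l2 was at 7.24 and 8.07 CPM on the VGAT + PITX3 plates (-5.68 ± 0.41, adjusted p = 2.71e-07).

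Nr2f1 and Nr2f2 were also lower in the VGAT + PITX3 sort, but were not absent from it. Nr2f1 was at 20.1 and 25.6 CPM there (log2 fold change -3.67 ± 0.36, adjusted p = 7.05e-06), and Nr2f2 at 26.7 and 14.8 CPM (-3.64 ± 0.27, adjusted p = 3.48e-07). Dach1 was at 27.8 and 13.9 CPM (-2.46 ± 0.23, adjusted p = 4.66e-06) and Uncx at 30.1 and 17.0 CPM (-1.23 ± 0.23, adjusted p = 0.00223). Each of these 4 genes was lower on both VGAT + PITX3 plates than on any VGAT plate.

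Foxp2 went the other way. It was at 638 CPM on the E16 and 876 CPM on the P0 VGAT + PITX3 plate, above the highest VGAT plate (379 CPM), and its log2 fold change was 1.61 ± 0.21 (adjusted p = 9.91e-05). Foxp2 was found in 75.9% (exact 95% interval 70.7% to 80.7%) and 81.1% (75.7% to 85.8%) of thinned VGAT + PITX3 cells and in 15.98% to 26.8% of thinned VGAT cells. These intervals cover counting error only. Its relatives Foxp1 (-0.55 ± 0.17, adjusted p = 0.0664) and Foxp4 (-0.05 ± 0.31, adjusted p = 0.971) were not called, and the sign of Foxp4 turned under several alternatives. The 8 calls stood when any 1 plate was left out, where 8 or 9 genes were called.

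Whether the stage difference itself differed between the sorts was tested as an interaction. No member was called, and no gene of 15724 was called by edgeR, against 3 by DESeq2, while 998 (6.35%) had an unadjusted p under 0.05. Foxp2 had an interaction of 1.06 ± 0.35 on the log2 scale (unadjusted p = 0.00906, adjusted p = 0.773). Its levels were lower at P0 in the VGAT sort and higher at P0 in the VGAT + PITX3 sort, with 1 plate of the second sort at each stage.

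Cells with and without Six3 were then compared within each VGAT plate, with the plate as a block, to see which other genes are higher in Six3 cells. Cells were split by a Six3 count after thinning, so that depth did not decide the split, and the ratio of median counts between the arms was 0.90 to 1.21. Of the 8 genes tested, 4 were called and all 4 were higher in Six3 cells, and 2.11% of 12534 genes were called, 1.08% higher and 1.04% lower. The genes were chosen with earlier results of these data known. Their share beside that of all genes is thus no test of the set, here or below. Foxp2 was higher on 7 of 7 plates. It was at 376, 556, 769, 472, 361, 436 and 319.6 CPM in cells with Six3 and at 184, 171, 114, 226, 83.7, 119.1 and 88.9 CPM in cells without, in the order E16 replicates 1 to 4 and P0 replicates 1 to 3, and no plate overlapped (log2 fold change 1.74 ± 0.16, adjusted p = 3.29e-05).

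Uncx was higher on 7 of 7 plates, at 88.3 ± 18.2 CPM (SD, 7 plates) with Six3 and 40.1 ± 20.1 CPM without (log2 fold change 1.21 ± 0.19, adjusted p = 0.00177). On VGAT E16 replicate 1 the arms were close, at 92.7 and 83.4 CPM. Tcf7l2 was higher on 6 of 7 plates, at 671, 323, 1069, 1448, 304, 325 and 574 CPM with Six3 and 510.2, 391, 173, 319, 64.1, 124 and 176 CPM without, and VGAT E16 replicate 2 was the exception (1.43 ± 0.27, adjusted p = 0.00943). Foxp4 was higher on 6 of 7 plates, at 103 ± 36.6 CPM with and 61.4 ± 25.4 CPM without (0.83 ± 0.13, adjusted p = 0.00177). The same 4 genes were called without these 2 plates (VGAT E16 replicate 1 and VGAT P0 replicate 2), with log2 fold changes of 1.88 for Foxp2, 1.69 for Tcf7l2, 1.55 for Uncx and 1.02 for Foxp4.

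Foxp1, Dach1, Nr2f1 and Nr2f2 were not called in Six3 cells, although Six3 was called in the splits by Foxp1 and Nr2f1 given below. Foxp1 was higher on 6 of 7 plates (log2 fold change 0.77 ± 0.20, adjusted p = 0.0666), but on VGAT P0 replicate 3 it was at 293 CPM with Six3 and at 500.1 CPM without. Dach1 was higher on 5 of 7 plates (0.68 ± 0.21, adjusted p = 0.145). Nr2f1 (0.51 ± 0.20, adjusted p = 0.328) and Nr2f2 (0.38 ± 0.24, adjusted p = 0.663) were found both in and out of Six3 cells. When only cells with at least 5 Six3 counts formed the first arm, 6 of the 8 were called, with Dach1 at 1.05 and Foxp1 at 0.66. The share of all genes called in that fit is not given here, so the 6 of 8 cannot be set against it.

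Most fixed markers of other GABAergic types had lower summed levels in Six3 cells. Of the SNr-1 list, 7 of 9 were lower, among them Pax5 (-1.95), En1 (-2.02) and Irs4 (-2.01), and the summed level of the list was lower with Six3 on 7 of 7 plates (241 to 608 CPM with, 422 to 2369 CPM without). Of the forebrain and hypothalamic GABA list, 6 of 10 were lower, among them Sp8 (-3.06) and Dlx5 (-2.46). The fixed markers of the rostral interpeduncular nucleus, Pax7 and Otp, were lower on 7 of 7 plates (0 to 76.4 CPM with, 1.37 to 104 CPM without), those of the midbrain reticular formation on 6 of 7 (181 to 454 CPM, against 248.5 to 562 CPM) and those of the hindbrain on 6 of 7 (2.63 to 89.3 CPM, against 24.1 to 168 CPM). The exception was Otx2. This gene, the only fixed marker of the GABAergic type of the ventral tegmental area, was higher (0.76), on 5 of 7 plates, and its call was lost without VGAT E16 replicate 2, 3 or 4 (adjusted p = 0.0797, 0.0863 and 0.0682). Of 9 tested midbrain GABA selectors, 4 were higher (Gata3 0.48, Tal1 0.34, Zfpm1 0.79 and Lhx1 0.71) and Sox14 was lower (-0.82). Lef1, a relative of TCF7L2, was the only called gene of 7 tested TCF/LEF genes and Wnt targets (-2.17), and no gene of 4 tested in the EYA and DACH network of SIX3 relatives was called. Without VGAT E16 replicate 1 and VGAT P0 replicate 2, Tal1 (0.32), Zfpm1 (0.55) and Sp8 (-2.92) did not pass, and Pax5 was at -2.51, En1 at -2.65 and Otx2 at 1.06.

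Beside these lists, the genes with the largest differences and 1 direction on all 7 plates were named by rule, from the 1.3% of genes that met both conditions. Prrxl1 (log2 fold change 4.63 ± 0.28), a paired-type homeodomain factor, Mafa (3.91 ± 0.33), a leucine zipper factor, Gm36325 (3.84 ± 0.54), the zinc finger gene Bnc2 (3.602 ± 0.26) and the homeobox gene Nkx1-2 (2.15 ± 0.44) were higher in Six3 cells. Sfta3-ps (-3.06 ± 0.45), the paired box gene Pax7 (-2.91 ± 0.42), the glycine transporter gene Slc6a5 (-2.69 ± 0.42), Nhlh1 (-2.48 ± 0.54) and Dlx5 (-2.46 ± 0.52) were lower. Nkx1-2 did not pass without VGAT E16 replicate 1 and VGAT P0 replicate 2 (1.93, adjusted p = 0.0873). Most of these are low genes. Prrxl1 was at 24.4 ± 17.8 CPM with Six3 and at 0.862 ± 0.711 CPM without.

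The same split was made once for each gene, and each of the others was read from a fit over all genes. Over the 10 splits, 35 of 88 differences between members were called, 31 higher and 4 lower. Of all genes tested, 2.31% were called in the split by Six3os1 (1.01% higher, 1.3% lower), 0.903% by Foxp1 (0.569%, 0.334%), 2.52% by Foxp2 (1.2%, 1.32%), 0.43% by Foxp4 (0.207%, 0.223%) and 0.942% by Tcf7l2 (0.434%, 0.508%). The share was 2.21% by Nr2f1 (1.09%, 1.11%), 1.47% by Nr2f2 (0.541%, 0.933%), 1.11% by Uncx (0.441%, 0.666%) and 1.52% by Dach1 (1.1%, 0.417%). Cells with Six3os1 had higher Foxp2 (2.03 ± 0.16), Uncx (1.35 ± 0.16), Foxp4 (0.92 ± 0.16) and Foxp1 (0.81 ± 0.14), each in 6 or 7 of 7 plates. Cells with Foxp1 had higher Foxp2 (1.67), Six3os1 (1.21), Uncx (0.96) and Six3 (0.72, adjusted p = 0.00177), each on 7 of 7 plates. Cells with Uncx had higher Foxp2 (1.68), Six3os1 (1.42), Foxp4 (0.98) and Six3 (0.79). Six3, Six3os1, Foxp2, Foxp4 and Uncx were thus each higher in cells with any other of the 5, except that Foxp2 (0.80) was not called in Foxp4 cells and Six3 and Six3os1 were not tested against each other.

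Nr2f2 was higher with Nr2f1 and with Tcf7l2, whereas Nr2f1 and Tcf7l2 were not called against each other. Tcf7l2 was at 0.19 in cells with Nr2f1 (adjusted p = 0.701), and Nr2f1 was at -0.35 in cells with Tcf7l2 (adjusted p = 0.287). Cells with Nr2f1 had higher Nr2f2 (1.49), Dach1 (0.90) and Six3 (0.53, adjusted p = 0.0408, on 6 of 7 plates), cells with Nr2f2 had higher Tcf7l2 (1.63) and Nr2f1 (0.94), and cells with Tcf7l2 had higher Nr2f2 (0.73) and Six3 (0.77). The 4 negative calls were Tcf7l2 (-1.88) and Dach1 (-0.65) in Foxp2 cells, Foxp2 (-1.24) in Dach1 cells and Foxp1 (-0.46) in Nr2f2 cells. Foxp2 in Tcf7l2 cells had the same sign without a call (-0.96).

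**Figure D3:**
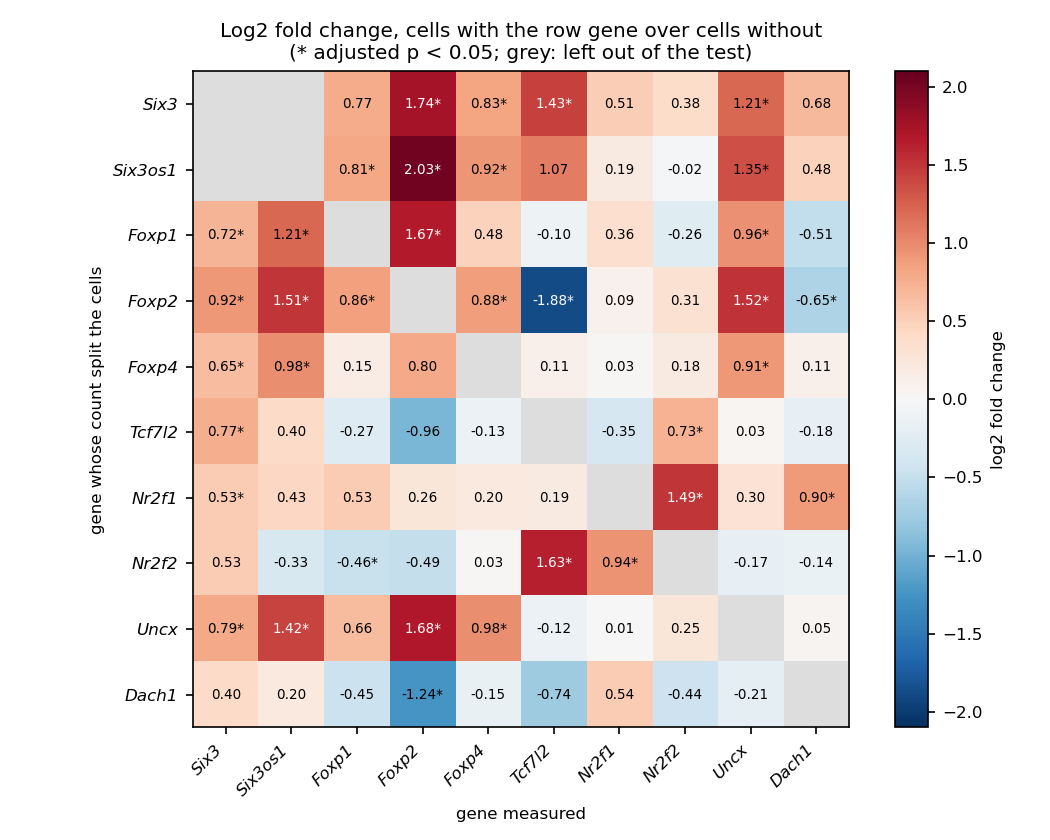
Log2 fold change of the gene in each column between VGAT cells with and without a count of the gene in each row, from counts summed per plate with the plate as a block; stars mark adjusted p under 0.05 over all genes tested, and grey squares were left out of the test. Uncx is high in the rows of Six3, Six3os1 and Foxp2, Foxp2 is high in the rows of Six3, Six3os1 and Uncx, and the Foxp2 row holds the lowest value, -1.88 for Tcf7l2.

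The fixed lists separated these splits further. The SNr-1 list had between 3 and 8 of 9 genes lower in the cells with each member, other than in Foxp4 cells, where none of the 9 was called. The named genes of the forebrain and hypothalamic list went in different directions between splits, and they do not stand for the whole list. Dlx1 was higher in cells with Nr2f2 (1.90) and Foxp2 (1.23) and lower in cells with Uncx (-2.25). Sp9 was lower in cells with Six3os1 (-3.91), Uncx (-3.15), Tcf7l2 (-2.13) and Dach1 (-1.64). Sp5, a direct target of Wnt signalling in many tissues, was higher in cells with Tcf7l2 (4.43) and in cells with Nr2f2 (2.99). It does not stand for its list, and Wnt activity was not tested.

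Co-detection in single cells was measured as the log2 odds ratio that both genes of a pair have a count in a thinned cell, 1 value per VGAT plate, for 45 pairs. 8 pairs were above 0 on all 7 plates, and none was below 0 on all 7. An exact two-sided sign-flip permutation test over plates gives p = 0.0156 for each of the 8, which is the smallest value 7 plates allow, and p-values are not adjusted for the 45 pairs. Among all genes found in at least 5% of thinned cells, the share above 0 on all 7 plates was 1.61% with Six3, 1.73% with Six3os1, 1.07% with Foxp1, 1.5% with Foxp2, 1.19% with Foxp4, 1.29% with Tcf7l2, 1.36% with Nr2f1, 1.29% with Nr2f2, 1.25% with Uncx and 1.53% with Dach1. The share below 0 on all 7 was between 0.91% (Foxp4 and Tcf7l2) and 1.45% (Foxp2), with 1.22% for Six3, 1.07% for Six3os1, 1.04% for Foxp1 and Dach1, 1.13% for Nr2f1 and 0.954% for Nr2f2 and Uncx.

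Six3 and Six3os1 were found together most, with a mean log2 odds ratio of 4.46 ± 1.27 (SD, 7 plates) and a range of 2.59 to 5.78. Six3 had a count in 90.3% of cells with Six3os1 and in 28.0% of cells without. Their annotated spans overlap at the starts of both genes, whereas tags are taken near the ends of transcripts. How far shared reads add to this was not tested. Uncx was found with Six3os1 (1.395 ± 0.62) and with Six3 (1.09 ± 0.63), and it had a count in 23.6% of cells with Six3 and in 13.2% of cells without. On VGAT E16 replicate 1 the Six3 and Uncx value was 0.27, the lowest of the 7. Without VGAT E16 replicate 1 and VGAT P0 replicate 2, the mean was 5.12 for Six3 with Six3os1 and 1.32 for Six3 with Uncx.

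Six3os1 was also found with Foxp1 (1.25 ± 1.23), Foxp2 (1.18 ± 0.42) and Dach1 (0.66 ± 0.53). Foxp2 had a count in 36.9% of cells with Six3os1 and in 21.0% of cells without. Nr2f1 and Nr2f2 were found together (1.33 ± 0.49), with Nr2f2 in 46.5% of cells with Nr2f1 and in 25.8% of cells without. Tcf7l2 was found with Nr2f2 (1.10 ± 0.54), with Nr2f2 in 47.5% of cells with Tcf7l2 and in 30.3% of cells without. Each of the other 7 genes was found more often in cells with Six3 than in cells without on 6 of 7 plates, though the plate that went the other way differed between genes, with mean log2 odds ratios between 0.58 and 0.89.

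Foxp2 and Tcf7l2 did not share 1 direction. Their log2 odds ratio was -0.74, 0.08, -1.12 and -0.18 on VGAT E16 replicates 1 to 4 and 0.10, 0.22 and -1.80 on VGAT P0 replicates 1 to 3, with a mean of -0.49 ± 0.76 (exact permutation p = 0.203). Without thinning the mean was 0.22. Among the 388 cells with at least 5 Six3 counts, 114 had both Foxp2 and Tcf7l2, 110 had Tcf7l2 alone, 86 had Foxp2 alone and 78 had neither. The shares differed between plates. Both together were seen in 17.1% (VGAT P0 replicate 2) to 55.2% (VGAT E16 replicate 1) of these cells, Tcf7l2 alone in 17.9% to 37.7%, Foxp2 alone in 7.46% to 41.5% and neither in 8.96% to 35.6%. These cells were not thinned, and a single count of either gene was enough. Of the clusters described below, cluster 8 had a Tcf7l2 count in 41.7% of its cells before thinning and in 11.4% after. Cluster 4 had a Foxp2 count in 32.8% of its cells before thinning and in 17.2% after. The 114 cells with both are thus no measure of shared high levels.

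**Figure D4:**
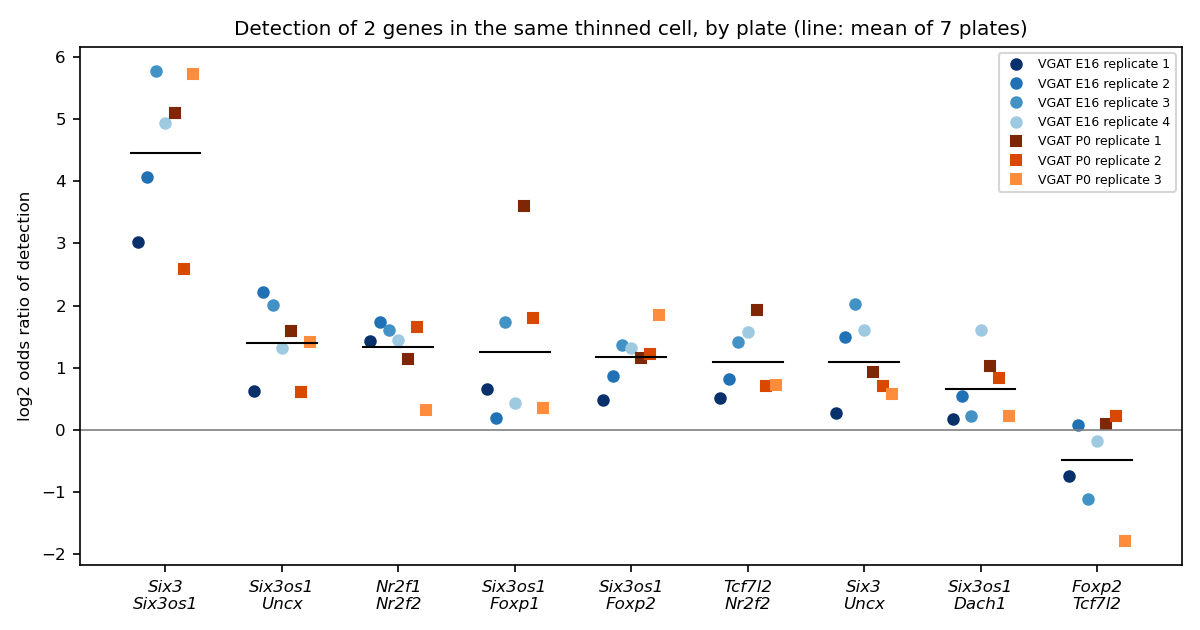
Log2 odds ratio of co-detection after thinning to 4000 counts for the 8 pairs above 0 on all 7 VGAT plates and for Foxp2 with Tcf7l2; each point is 1 plate and the line the mean. Six3 with Six3os1 has the highest values (2.59 to 5.78), and Foxp2 with Tcf7l2 lies on both sides of 0.

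Six3 cells with Tcf7l2 and no Foxp2 were set against Six3 cells with Foxp2 and no Tcf7l2 within each plate, since the study tells these 2 kinds of Six3 neuron apart. Of 6 genes tested, 2 were called and both were lower in the Tcf7l2 cells, and 0.854% of 9597 genes were called, 0.302% higher and 0.552% lower. Uncx was at 58.7, 34.5, 52.4, 43.2, 51.0, 43.1 and 66.8 CPM in the Tcf7l2 cells and at 120, 111, 165, 145, 63.9, 118 and 155 CPM in the Foxp2 cells, lower on 7 of 7 plates (log2 fold change -1.39 ± 0.16, adjusted p = 0.000283). Foxp1 was at 371 ± 228 CPM in the Tcf7l2 cells and at 725 ± 247 CPM in the Foxp2 cells (-1.12 ± 0.23, adjusted p = 0.0260). VGAT P0 replicate 1, with 4 and 6 cells in the arms, went the other way for Foxp1, and the Foxp1 call was lost in 5 of the 7 fits that left out 1 plate.

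Nr2f1 (-0.58 ± 0.16, adjusted p = 0.146), Foxp4 (-0.78 ± 0.23, adjusted p = 0.167), Nr2f2 (0.45 ± 0.14, adjusted p = 0.191) and Dach1 (0.23 ± 0.33, adjusted p = 0.937) were not called between the Tcf7l2 and Foxp2 cells. Without VGAT E16 replicate 1 and VGAT P0 replicate 2, Uncx was at -1.49 (adjusted p = 0.00202), and Foxp1 was at -0.998 and not called (adjusted p = 0.223). With at least 5 Six3 counts required, Uncx (-2.44), Foxp1 (-1.71) and Foxp4 (-1.51) were called. This split used counts that were not thinned, and the Tcf7l2 cells held more counts on 6 of 7 plates, by 1.04 to 1.83 times in the median. With cells called after thinning, more of the 6 genes were called, as given in the closing section. Beyond that, the part of depth was not tested.

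Other genes separated these cells as well. The summed level of the 6 oligodendrocyte lineage markers was higher in the Tcf7l2 cells on 6 of 7 plates (47.0 to 102 CPM, against 5.32 to 67.1 CPM), none of the 2 tested was called, and their part in the split was not tested. The astrocyte and radial glia markers were lower on 6 of 7 plates (2.44 to 274 CPM, against 4.10 to 49.97 CPM), and the hindbrain markers were higher on 6 of 7 (1.27 to 67.0 CPM, against 0 to 117 CPM). Of 8 tested midbrain GABA selectors, Gata2 (0.93) and Lhx1 (1.17) were higher in the Tcf7l2 cells, and of 4 tested nuclear receptors, Rorb was lower (-1.32). No gene of the SNr-1 list was called among the 9 tested. By the rule of the largest differences with 1 direction on all plates, which 0.521% of genes met, Sox1ot (2.85 ± 0.48), the serotonin receptor gene Htr1b (2.11 ± 0.40), Kctd4 (1.94 ± 0.43), the adhesion molecule gene Cntn4 (1.69 ± 0.18) and Omg (1.64 ± 0.35) were higher in the Tcf7l2 cells. Mafa (-3.84 ± 0.55), the cation channel gene Trpc4 (-2.47 ± 0.30), Zeb2 (-2.44 ± 0.31), the secreted semaphorin gene Sema3e (-2.40 ± 0.35) and Mcc (-2.08 ± 0.29) were higher in the Foxp2 cells. Without VGAT E16 replicate 1 and VGAT P0 replicate 2, Rorb (-1.54, adjusted p = 0.0635) and Omg (1.62, adjusted p = 0.165) did not pass, and the other genes named here did.

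The genes were also followed over clusters of cells. Clusters are described without a test, because they were made from the same cells, and the 10 genes were left out of the variable genes used to make them. Among 21 clusters, Six3 had a count in more than 50% of the cells in 6 before thinning. After thinning it was found in 98.8% of cells in cluster 8, 79.7% in cluster 4, 62.3% in cluster 6, 48.4% in cluster 0, 36.7% in cluster 17 and 14.3% in cluster 18, so that 3 of the 6 passed 50%. Of the 6, 3 held most Six3 counts of the VGAT plates: cluster 0 held 30.3%, cluster 4 held 28.7% and cluster 8 held 26.4%. None of the 6 was named. A name needed at least 3 fixed markers from the same list. The lists for the GABAergic type of the ventral tegmental area and for the rostral interpeduncular nucleus are shorter. No list was made for the Six3 type, so clusters of these types could not be named.

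Cluster 8 (96 cells, none from the VGAT + PITX3 plates) held 56.1% of the Foxp2 counts, 38.5% of the Six3os1 counts and 35.4% of the Uncx counts of the VGAT plates. Over the 6 plates with at least 5 cells in it, Six3 was at 1402 ± 245 CPM, Foxp2 at 2018 ± 412 CPM and Uncx at 275 ± 71.0 CPM, while Tcf7l2 was at 25.4 ± 9.64 CPM and Dach1 at 9.63 ± 4.83 CPM. Its leading genes included Trpc4, Sema3e and Mafa. Cluster 4 (137 cells) held 54.1% of the Tcf7l2 counts, with Six3 at 1162 ± 194 CPM, Tcf7l2 at 2680 ± 1129 CPM and Nr2f2 at 622 ± 299 CPM, but Foxp2 at 111 ± 92.5 CPM and Uncx at 52.9 ± 23.7 CPM. Six3os1 was at 352 ± 109 CPM in cluster 8 and 139.5 ± 86.0 CPM in cluster 4, Foxp4 at 254 ± 85.6 and 64.4 ± 26.5 CPM, and Dach1, at 127 ± 97.9 CPM, was higher in cluster 4.

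Cluster 0 (329 cells) had less Six3 than either, with Six3 at 567 ± 176 CPM, Tcf7l2 at 668 ± 423 CPM and Foxp2 at 198 ± 115 CPM over 7 plates, and it held 32 cells with over 2 times the median counts of their plate. Cluster 6 (115 cells) had Six3 at 444 ± 144 CPM and was high in Dach1 (406 ± 117 CPM) and Nr2f1 (468 ± 225 CPM), with little Tcf7l2 (24.1 ± 18.3 CPM). Its leading genes included Pappa, Otx2os1 and Otx2, the fixed marker of the GABAergic type of the ventral tegmental area. Cluster 17 (41 cells) had Foxp1 at 1934 ± 510.1 CPM, above cluster 8 (1260 ± 319 CPM), with Six3 at 148 ± 51.3 CPM. Cluster 18 (27 cells) had enough cells on 2 plates only, with Six3 at 30.1 and 55.3 CPM.

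Cluster 8 also held 24.9% of the Foxp1 and 26.1% of the Foxp4 counts of the VGAT plates. Nr2f1 and Nr2f2 were found both in and outside the clusters with Six3. Nr2f1 had its largest share in the Hindbrain-like cluster 14 (19.0%), close to that in cluster 0 (18.5%), and 56.9% of the cells in cluster 14 are from 1 plate, VGAT P0 replicate 3. Its level in cluster 14 was 1257 ± 144 CPM over 5 plates. The Hypothalamic-like cluster 3 held 25.6% of the Nr2f2 counts, with 26.98% in the larger cluster 0 and 25.1% in cluster 4, both clusters with Six3, and it held 15.8% of the Nr2f1 counts. In the SNr-1-like clusters 7 and 12, Six3 was at 43.1 ± 44.4 and 22.2 ± 8.77 CPM and Foxp1 at 90.6 ± 30.6 and 72.0 ± 27.0 CPM. The 5 clusters made almost wholly of cells from the VGAT + PITX3 plates differed in Foxp2. It was at 275 and 423 CPM on the 2 plates in the Dopamine neuron-like cluster 1, which is led by Slc6a3, Aldh1a1 and Th, and at 771 and 1139 CPM and 1115 and 1346 CPM in the Dopamine neuron-like clusters 10 and 13. It was at 851 and 1073 CPM in cluster 2 and at 605 and 822 CPM in cluster 9, which are unnamed and have the glutamate transporter gene Slc17a6 among their leading genes. Clusters 9 and 13 passed on the same dopamine neuron markers (Ddc, Slc18a2, Pitx3, Nr4a2, Lmx1b and Foxa2), without Th and Slc6a3. Cluster 9 stayed unnamed because Slc17a6 was among its leading genes. Six3 was at 0 to 2.05 CPM in these 5 clusters.

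**Figure D5:**
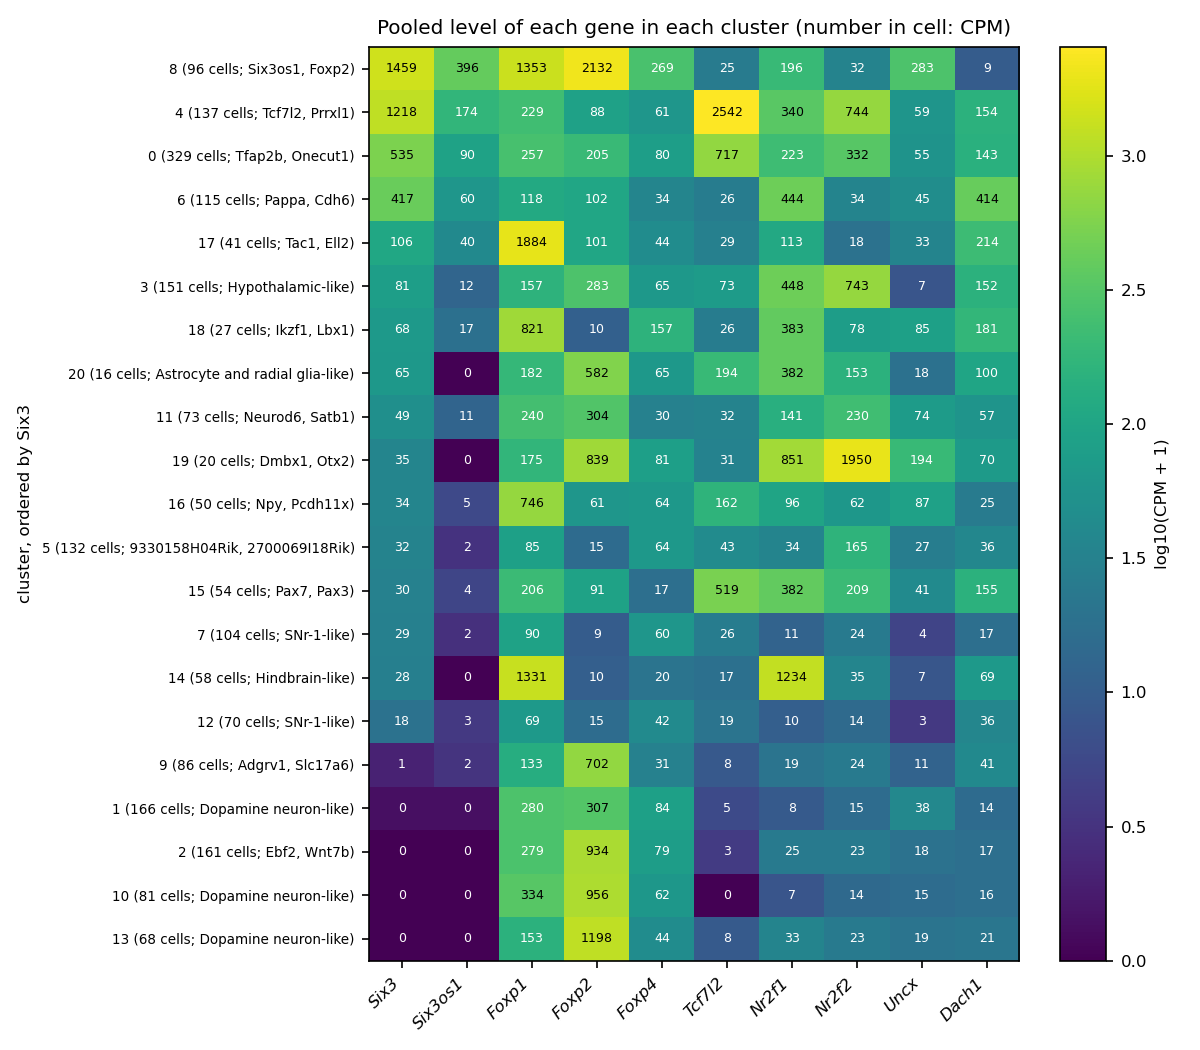
Level of the 10 genes (columns) in each cluster (rows, ordered by Six3), in counts summed over all cells of a cluster; colour gives log10(CPM + 1) and the number in each square the CPM. Six3 is high in clusters 8, 4, 0 and 6, where Foxp2 and Uncx are highest in cluster 8 and Tcf7l2 in cluster 4.

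Likeness of pattern was read as the Pearson correlation of log2(CPM + 10) over the 21 clusters, which share libraries, among 10897 genes with at least 20 CPM in some cluster. Over the clusters, Six3 was most like Six3os1 (r = 0.92), then Hs3st5 (0.73) and Atp6v1g2 (0.72). Nr2f1 was most like A830082K12Rik (0.93) and Nr2f2 most like B130024G19Rik (0.91), and both partners overlap their gene on the opposite strand. Foxp1 was most like Gm20696 (0.83), which overlaps it on the same strand. For these 4 pairs, reads from the shared bases cannot be told apart here. In the opposite-strand pairs the annotated spans share the starts of both genes, whereas tags are taken near the ends of transcripts. How far shared reads add to these values was not tested.

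The remaining genes had partners elsewhere in the genome. Foxp2 was most like Adarb2 (0.86), an RNA-editing family gene, then Gm48259 (0.82) and Gm48261 (0.77), which both lie within the span of Adarb2 on the same strand, so the 3 are 1 locus. Tcf7l2 was most like Ppm1m (0.78), Tfap2b (0.73) and Prrxl1 (0.69). Uncx was most like Zfpm1 (0.76), a co-factor of GATA proteins, Cux1 (0.76) and Necab2 (0.76), Dach1 was most like Tasp1 (0.77), and Foxp4 was most like Smarcd3 (0.75). Between members, Tcf7l2 was more like Nr2f2 (0.64) and Six3 (0.62) than like Foxp2 (-0.20), and Foxp2 had no member above 0.30.

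The genes also differed in the share of counts that fell in introns. On the VGAT plates, 83.0% of the Dach1 counts, 41.5% of the Foxp1 counts and 37.7% of the Foxp2 counts were intronic, against a median of 10.7% over 10780 genes with at least 200 counts. Six3 (0.631%) and Six3os1 (1.46%) were almost all exonic, and Nr2f1 (5.57%), Nr2f2 (7.81%), Uncx (9.29%), Tcf7l2 (10.9%) and Foxp4 (12.0%) lay near or below the median. Dach1 spans 382913 bases, Foxp1 597384 and Foxp2 540629, and Six3 spans 15695. In exon counts alone, 2 genes were called for stage in the VGAT sort and none in Six3 cells. The share of all genes called in exon counts is not given here.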

How the data were processed

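Single cells of the ventral midbrain were sorted into 384-well plates and sequenced by SORT-seq, a form of CEL-seq2 that counts unique molecular identifiers near the 3′ end. Reads were aligned by the authors with STAR to GRCm38 (mm10 in the processing notes) with an Ensembl annotation. The deposited values are expected counts per gene and cell, corrected by the authors for identifier collisions, and 51.5% of the non-zero values are not whole. Total, exon and intron tables were used.

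Of 3455 wells, 2035 had 2000 genes or more, no more than 50000 counts and a mitochondrial share under 15%, and these entered as cells. All filters left out ERCC spike-ins. Counts were summed per plate, or per plate and arm of cells, and rounded. CPM used TMM-scaled library sizes without mitochondrial genes and spike-ins. Sums were tested with edgeR 4.0.16 (quasi-likelihood, R 4.3.3) over all genes passing its filter on low counts, with Benjamini-Hochberg adjustment over all of them and a threshold of 0.05. Sorts were compared with stage as a covariate, and arms of cells with the plate as a block. Errors of log2 fold changes are standard errors. For detection in single cells, each cell was thinned to 4000 counts, which left out 78 cells. Co-detection used log2 odds ratios with 0.5 added. Cells were clustered with scanpy 1.11.5 (Louvain, 40 components, 15 neighbours, resolution 1) with the 10 genes left out of the variable genes. No doublet caller was run, and 119 cells over 2 times their plate median were left out as an alternative. Well barcodes recur on every plate by design. Binomial intervals are exact (Clopper-Pearson, 95%) and, like every limit from counts, cover counting error only.

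Samples were grouped by title. Samples with the same replicate number did not deviate together (correlations of 0.04 to 0.06), so they were not paired. In the splits of Six3 cells, named genes were those called and moving 1 way on all plates, the 5 furthest up and the 5 furthest down by log2 fold change. The 10 genes, the gene lists and the cell type markers were chosen with earlier results of these data known. Alternatives were DESeq2 1.42.0, other scaling, no filter on low counts, exon counts, thinned cells, a replicate block, and each plate left out in turn. Added after seeing the data were the removal of both plates with the highest share of Six3 in SNr-1-like cells, a minimum of 5 Six3 counts, and the plates with agreeing stage labels. The values of 1 list gene are not reported here.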

Additional observations from a re-analysis of the deposited data

Results flagged for a closer look

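Groups of 4 or more plates were checked by Dixon's test at 95%, and VGAT E16 is the only such group. Over 35 sets of values, 5 stood far from the others, where chance gives about 1 in 20. Foxp2 was at 378.8 CPM on replicate 3, against 275 to 291 CPM on the other plates. Of the Uncx counts, 12.203% fell in introns on replicate 3. Among thinned SNr-1-like cells, Six3 was found in 41.667% on replicate 1, against 4.55% to 5.00% on the others. In the same cells, Six3os1 was found in 3.125% on replicate 3 (2 of 64 cells) and in none on the others, and Uncx in 10% on replicate 2 (2 of 20 cells) and in none on the others. For these last values, 1 plate above 0 with the others at 0 always passes this check.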

How the results depend on the processing

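Of 2135 values computed under an alternative, 1793 kept their direction and side of the threshold, 29 turned in sign, and the cause of a change was not tested. The number of the 10 genes called for the VGAT + PITX3 sort was 8 or 9 under every alternative, and for the interaction 0. In the stage comparison of the VGAT sort the count called was 4 with DESeq2, 5 without a filter on low counts and 2 with exon counts. It was 0 without cells over 2 times the plate median and 0 to 2 with 1 plate left out. The plates with agreeing labels are 2 E16 plates and 1 P0 plate, so only effect sizes are given for them. In Six3 cells the count called was 2 with DESeq2, 4 without a filter, 0 with exon counts and 2 with cells called after thinning. It was 3 without cells with a Dlx count and 3 with at least 5 Six3 counts. Without both plates with the highest share of Six3 in SNr-1-like cells it was 0, and with 1 plate left out 0 to 3. The share of all genes called is not given for these alternatives. A change in the 10 genes and a change in all genes thus cannot be told apart. A replicate block, where numbers in the labels are shared but do not pair the plates, gave 2 called in the VGAT sort, 3 in Six3 cells, 8 for the sort and 0 for the interaction, and the number of all genes called for stage in the VGAT sort went from 624 to 226. Without the filter, cells with Six3 gave 8, Tcf7l2 against Foxp2 cells 5 and the splits by the 9 other genes 53 of their calls, against 4, 2 and 31. Without the plate as a replicate block, the last were 1 and 17. Tcf7l2 against Foxp2 cells gave 4 with exon counts, 4 with thinned cells, 1 without both plates and 1 to 2 with 1 plate left out. Pairs above 0 on all plates numbered 19 without thinning, 21 with at least 2 counts, 14 with exon counts, 10 without both plates and 8 to 13 with 1 plate left out.

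Signs turned for differences that had not passed. For stage in the VGAT sort, Foxp1 was -0.061 without a filter, -0.095 with the replicate block, -0.28 on plates with agreeing labels and -0.076 to 0.14 with 1 plate left out. Foxp4 was 0.18 and Nr2f1 -0.54 on plates with agreeing labels, and Foxp4 ranged from -0.64 to 0.066 with 1 plate left out. In the VGAT + PITX3 comparison, Foxp4 was 0.0052 in exon counts and -0.23 to 0.15 with 1 plate left out. For stage in Six3 cells, Foxp4 was 0.026 in exon counts, 0.018 without cells over 2 times the median, 0.25 on plates with agreeing labels and -0.54 to 0.15 with 1 plate left out. Nr2f1 was -0.011 with thinned cells, -0.64 on plates with agreeing labels and -0.085 to 0.38 with 1 plate left out. Nr2f2 was 0.11 with thinned cells, 0.0079 without both plates and -0.42 to 0.00024 with 1 plate left out. Foxp2 was 0.14 on plates with agreeing labels, and Foxp1 ranged from -0.50 to 0.052 with 1 plate left out. The Foxp2 and Tcf7l2 odds ratio was 0.22 without thinning and -0.61 to -0.27 with 1 plate left out.

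Depth limits low counts: on VGAT P0 replicate 1, the plate with the fewest cells and the lowest total, 3 counts are 2.09 CPM. With 1 VGAT + PITX3 plate per stage the interaction has little to rest on. Leaving out either of those plates could not be fitted there.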
